A study of Mus musculus with 8 samples.

Results

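The genes described here encode the interleukin-1 (IL-1) cytokine system and the NLRP3 inflammasome: the cytokines Il1a, Il1b and Il18, the receptor antagonist Il1rn, the accessory receptor chain Il1rap, the decoy receptor Il1r2, the sensor Nlrp3, the adaptor Pycard and the caspases Casp1 and Casp4. They were chosen by name, with earlier results of these data known. All 18 probe sets whose platform annotation gives exactly one of these 10 symbols were taken, of 45037 probe sets that are not array controls. Blood monocytes were sorted by surface Gr1 from C57Bl/6 mice at 12 weeks of age, and RNA of 4 Gr1hi samples, written Ly6Chi here, was compared with RNA of 4 Gr1lo samples, written Ly6Clo. Per the labels, leukocytes of 5 mice were pooled for each sort, so a replicate is a pool and the spread between single mice was not measured. The labels name no treatment and no genetic modification in either subset, so the only comparison is between the subsets of resting blood. Values are probe set intensities from Affymetrix 3' expression arrays, and signed differences are Ly6Clo minus Ly6Chi on the log2 scale throughout.

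Pro-IL-1β and pro-IL-18 are made without a secretion signal and become active when caspase-1 cleaves them inside an inflammasome. NLRP3 senses damage to the cell, PYCARD (ASC) joins it to pro-caspase-1, and caspase-11, the product of mouse Casp4, binds bacterial lipopolysaccharide in the cytosol and opens a second route to the same complex. IL-1 signals through a receptor that pairs with the Il1rap chain. The antagonist encoded by Il1rn occupies that receptor without signalling, and the decoy encoded by Il1r2 binds IL-1 without passing a signal on. In monocytes, Il1b and Nlrp3 are known as genes that microbial products induce, and mRNA levels do not show how much cytokine is cleaved or released.

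Facts of the whole table bear on these genes as follows. The 8 array medians lay between 80.6 and 83.1 and differences had a median standard error of 0.08, a precision limited by the number of arrays. The subset labels were borne out by markers. All 7 measured classical monocyte markers were called higher in Ly6Chi (18.5% of all tested genes). Vcan, among the 7, passed the filter only through the Ly6Chi arrays and so had to differ. Of 11 nonclassical markers 10 were called higher in Ly6Clo (14.1% of all tested genes). The other, Cx3cr1, differed by 0.32 toward Ly6Clo without a call (limma adjusted p = 0.11). Summed intensity of 7 general monocyte markers, among them Csf1r and Lyz2, lay between 65700 and 68300 in Ly6Chi and between 67900 and 69600 in Ly6Clo. Of 12 measured neutrophil markers 10 were tested and 5 were called. All 5 were higher in Ly6Chi (18.5% of all tested genes). The summed intensity of all 12 was 3520 to 4130 in Ly6Chi against 1630 to 1990 in Ly6Clo. In Ly6Chi the brightest were Mmp8 (1071 to 1628 against 73.1 to 83.8) and Csf3r (1190 to 1363 against 795.7 to 962.5). S100a9, Ngp, Camp, Ltf and Elane were tested but not called. Lcn2, among the 5, passed the filter only through the Ly6Chi arrays and so had to differ. Cxcr2, which defines mature neutrophils, lay below the table median on all arrays. Markers of T cells, B cells, platelets and red cells overlapped between the subsets in summed intensity, although the B cell genes Ms4a1 (at least 1.85-fold) and Cd79a (at least 1.47-fold) were called toward Ly6Chi. The 6 dendritic cell markers summed to 1190 to 1360 in Ly6Chi and 1440 to 1930 in Ly6Clo, with Cd209a called toward Ly6Clo (1.87-fold) and Flt3 toward Ly6Chi (1.46-fold). The 6 measured NK cell markers summed to 772 to 895 in Ly6Chi and 1070 to 1330 in Ly6Clo. Among them Klrd1 (3.19-fold) and Gzma (1.64-fold) were called toward Ly6Clo. Klrk1 and Nkg7 were tested but not called, and Ncr1 and Prf1 were not tested.

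The 250 bases before the RefSeq transcription start (build GRCm38.p6) are shown for 4 genes: Il1b and Il18, cytokines whose mRNA differed in opposite directions, and Casp1 and Casp4, direct neighbours on chromosome 9 of which only Casp4 passed the test between the subsets. RefSeq promoter windows were matched for all 10 genes. Capitals mark matches, on either strand, to 6 motifs: the TATA box (TATAAA), the interferon-response core (GAAA and GAAA spaced by any 2 bases), a kB core (GGG, any 2 bases, TT, any base, CC), an AP-1 site (TGANTCA), a C/EBP type site (TTGNNNAAT) and the PU.1 core (GAGGAA).
Il1b, chr2:129371140-129371389, minus strand: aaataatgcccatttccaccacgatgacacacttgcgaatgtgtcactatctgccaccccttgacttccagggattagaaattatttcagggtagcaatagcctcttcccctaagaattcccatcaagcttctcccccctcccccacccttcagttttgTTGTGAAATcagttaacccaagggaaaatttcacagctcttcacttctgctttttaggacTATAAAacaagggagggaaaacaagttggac
Il18, chr9:50554450-50554699, plus strand: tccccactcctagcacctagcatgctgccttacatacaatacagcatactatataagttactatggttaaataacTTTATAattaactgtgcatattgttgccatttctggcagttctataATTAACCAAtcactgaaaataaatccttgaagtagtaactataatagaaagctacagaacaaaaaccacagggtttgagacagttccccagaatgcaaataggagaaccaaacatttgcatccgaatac
Casp1, chr9:5298267-5298516, plus strand: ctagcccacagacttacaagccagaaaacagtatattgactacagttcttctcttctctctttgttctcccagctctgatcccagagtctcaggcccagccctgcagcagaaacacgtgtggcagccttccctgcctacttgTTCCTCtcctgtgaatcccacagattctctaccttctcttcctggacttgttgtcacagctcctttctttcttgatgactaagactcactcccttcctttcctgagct
Casp4, chr9:5308599-5308848, plus strand: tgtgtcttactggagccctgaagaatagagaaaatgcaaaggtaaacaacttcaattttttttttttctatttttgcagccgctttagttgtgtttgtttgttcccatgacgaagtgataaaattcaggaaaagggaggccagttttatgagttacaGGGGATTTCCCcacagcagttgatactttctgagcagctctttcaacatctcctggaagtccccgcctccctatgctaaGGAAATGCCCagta

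In the Il1b window a TATA box match began 31 bases before the start and a C/EBP type match 91 bases before it. The Il18 window held a TATA box match on the opposite strand 175 bases before the start, and a C/EBP type match on the opposite strand at 129. The Casp1 window held a PU.1 core match on the opposite strand at 108. In Casp4, kB core matches began 93 and 92 bases before the start and overlap each other, and 1 more lay on the opposite strand at 14. Casp4 has 2 RefSeq windows, which hold the same matches, and the first is shown. Among 32851 promoter windows of the same length, 12.4% held the TATA box letters, 10.4% the C/EBP type letters, 4.11% the kB core letters and 23.3% the PU.1 core letters. The AP-1 letters, in 6.75% of windows, and the interferon-response core, in 2.98%, were not among the letters of these 4 windows. These matches describe the sequence and were not measured as binding.

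Il1b was the single gene of the group called higher in Ly6Clo, while Il18, Il1rn, Il1r2, Nlrp3, Pycard and Casp4 were called higher in Ly6Chi. The called differences toward Ly6Chi ran from 1.18-fold for Il1rn to 1.97-fold for Il18, and Il1b was 3.08-fold higher in Ly6Clo. Casp1 and Il1rap did not pass the test, and Il1a stayed below the filter on dim signal. In this way 7 of the 9 genes that passed the filter were called (limma, Benjamini-Hochberg adjusted p under 0.05), where 32.5% of all 11546 tested genes were: 6 higher in Ly6Chi (18.5% of all tested genes) and 1 higher in Ly6Clo (14.1%). The median difference of the 9 genes was -0.35, against -0.01 over all tested genes. One of them, Il1r2, passed the filter only through the Ly6Chi arrays and so had to differ. Without it 6 of 8 genes were called, with a median of -0.30. Since the genes were chosen with earlier results of these data known, their shares are a description and no test of the group. By probe set, 13 of the 18 passed the filter and 8 were called (31.1% over the whole table). Ly6Chi and Ly6Clo values were fully apart in 7 of the 13 (31.8% over the whole table). In RNA from a sorted population, fewer cells expressing a gene and less RNA per cell cannot be told apart.

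**Figure D1:**
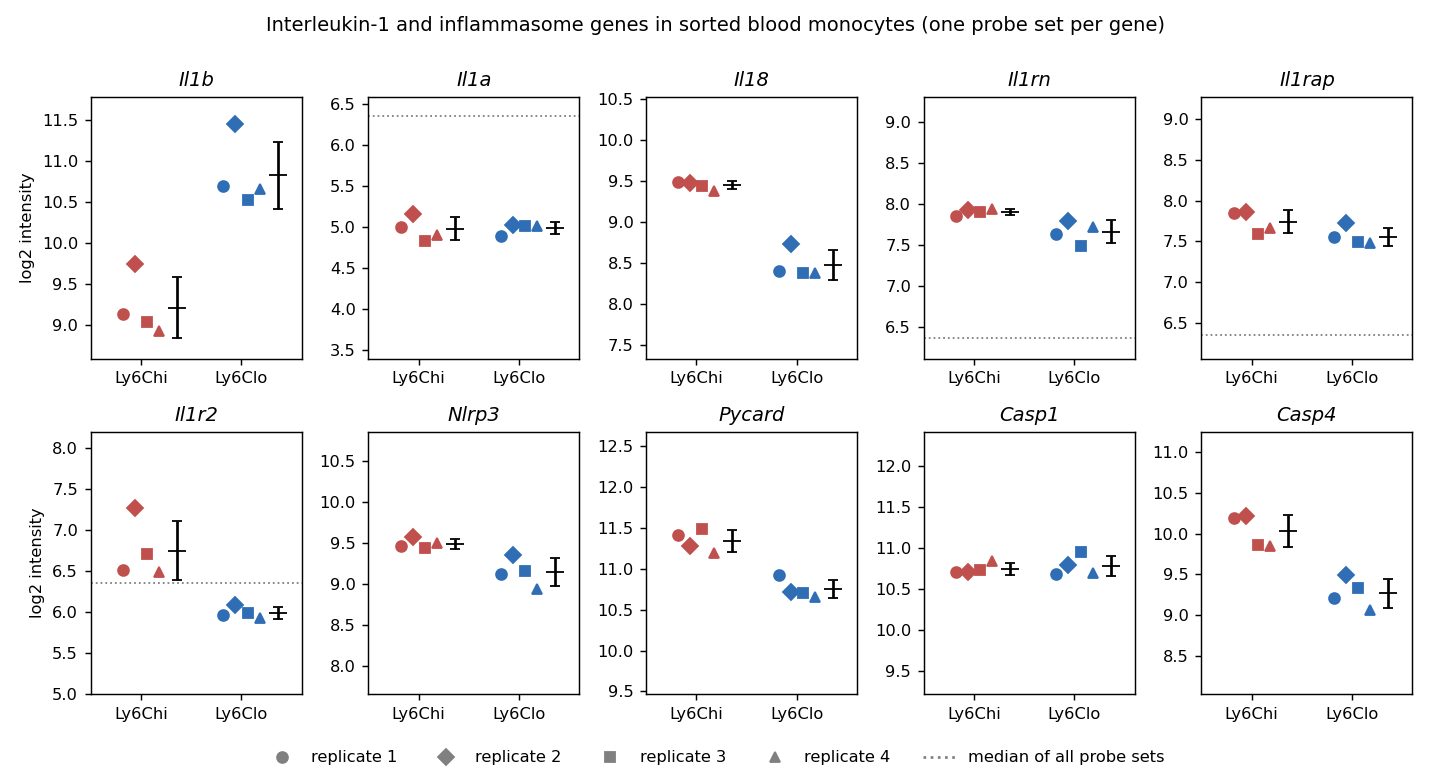
Log2 intensity of 1 probe set for each of the 10 genes in 4 Ly6Chi samples (red) and 4 Ly6Clo samples (blue). Marker shapes give the replicate number, black bars the mean ± SD and the dotted line the median of all probe sets, and every panel spans the same height on the log2 scale. Il1b stands higher in all Ly6Clo samples, Il18 and Casp4 higher in all Ly6Chi samples, Casp1 overlaps, and Il1a lies below the dotted line.

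Among the ligands, Il1b encodes IL-1β, the main IL-1 released by monocytes. Its probe set intensity was 562, 861, 526 and 488 in Ly6Chi replicates 1 to 4 and 1661, 2792, 1478 and 1622 in the Ly6Clo replicates. The lowest Ly6Clo sample was above the highest Ly6Chi sample, and the replicate numbered 2 was the highest of its subset on both sides. Mean log2 intensity was 9.21 ± 0.37 in Ly6Chi and 10.83 ± 0.41 in Ly6Clo (SD, n = 4 each). The difference was 1.62 (SE 0.21, 95% interval 1.16 to 2.08, limma adjusted p = 1.0e-04). Ranked by difference toward Ly6Clo, it was number 164 of 22831 tested probe sets. The within-subset spread of Il1b was also wide, with a pooled SD of 0.39 at the 99.4th percentile of tested genes, whose median SD was 0.11.

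Il18 encodes IL-18, which is known to prompt interferon gamma release from lymphocytes and, unlike IL-1β, is known to be held as a precursor in resting monocytes. Its intensity was 717, 712, 696 and 666 in Ly6Chi and 338, 426, 331 and 332 in Ly6Clo. The Ly6Chi samples lay close together, and all 4 were above every Ly6Clo sample. The difference was -0.98 (SE 0.09, 95% interval -1.16 to -0.79, limma adjusted p = 4.7e-06), a 1.97-fold higher level in Ly6Chi. Ranked by difference toward Ly6Chi, it was number 443 of all tested probe sets.

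Il1a encodes IL-1α, a cytokine that is active without cleavage. Its 1 probe set gave 32.01, 35.8, 28.4 and 30.1 in Ly6Chi and 29.7, 32.7, 32.5 and 32.4 in Ly6Clo. All 8 values lay below the table median of 81.9. That median stands in for background, since detection calls were not used, and the gene was left untested.

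The antagonist Il1rn was measured by 3 probe sets, all of which passed the filter. The probe set with the highest mean gave 230, 242, 239 and 246 in Ly6Chi and 199, 222, 179 and 212 in Ly6Clo. These groups did not overlap, but the gap between them was narrow. The difference was -0.24 (SE 0.07, limma adjusted p = 0.026), or 1.18-fold. The second missed the threshold, with -0.18 (limma adjusted p = 0.16), and the third was called, with -0.40 (limma adjusted p = 0.040). Values of the subsets overlapped in both. The call of the first probe set was lost on leaving out Ly6Chi replicate 2, 3 or 4, or Ly6Clo replicate 1 or 3 (differences -0.18 to -0.24, limma adjusted p = 0.050 to 0.072). The third lost its call on leaving out the same 5 samples or Ly6Clo replicate 4 (limma adjusted p = 0.054 to 0.11).

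**Figure D2:**
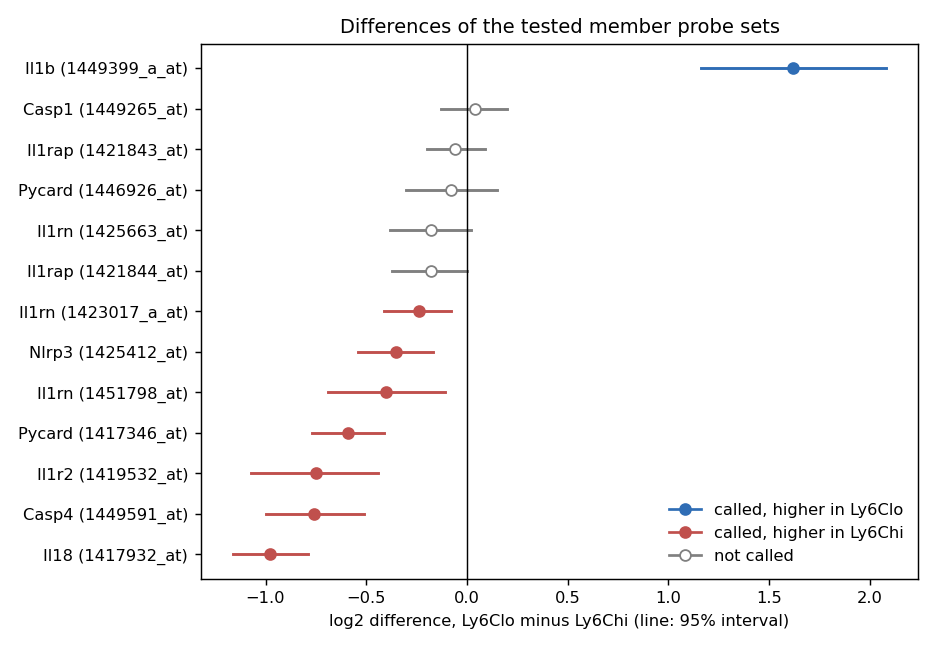
Log2 difference, Ly6Clo minus Ly6Chi, for the 13 tested probe sets of the group, with 95% intervals from the limma fit. Blue marks the 1 probe set called higher in Ly6Clo (Il1b), red the 7 called higher in Ly6Chi and open grey circles the 5 not called. Il1b lies alone on the right at 1.62, and the called Ly6Chi probe sets run from -0.24 to -0.98.

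The change of the agonist against its antagonist was taken within arrays, as log2 Il1b minus log2 Il1rn in each sample. This value was 1.29, 1.83, 1.14 and 0.99 in Ly6Chi and 3.06, 3.65, 3.05 and 2.94 in Ly6Clo. The values of each gene alone already separated the subsets, and this is a difference between separate probe sets, so only its change between subsets can be read, not its level. The change was 1.86 toward Ly6Clo. Il1b and Il1rn separated the subsets in opposite directions, so this value could not overlap between them. The two-sided exact permutation test could therefore give only p = 0.0286, the smallest that 70 orders allow, and adds nothing to the results of the 2 genes. The other 2 pairs, chosen after their values were seen, are given as a description with no test. Il1b minus Il18 changed by 2.60, from a mean of -0.23 ± 0.34 to 2.36 ± 0.24 (SD, n = 4 each). Casp4 minus Casp1 changed by -0.79, from -0.71 ± 0.26 to -1.50 ± 0.15.

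**Figure D3:**
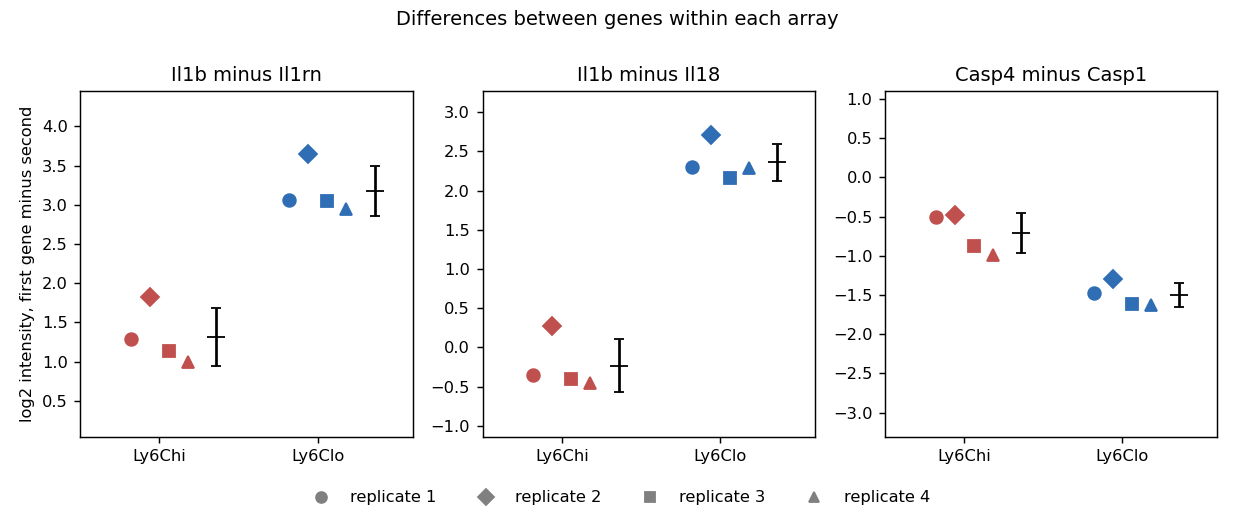
Difference in log2 intensity between 2 genes of the same array, for Il1b minus Il1rn, Il1b minus Il18 and Casp4 minus Casp1, in 4 Ly6Chi (red) and 4 Ly6Clo (blue) samples. Shapes give the replicate number and bars the mean ± SD. The first 2 pairs rise from Ly6Chi to Ly6Clo, by 1.86 and 2.60, and the third falls by 0.79, with no overlap between subsets in any of the 3.

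The decoy receptor Il1r2 was dim. Its intensity was 92.0, 154, 105 and 89.6 in Ly6Chi and 62.2, 68.2, 63.7 and 61.0 in Ly6Clo. All Ly6Chi samples were above the table median and all Ly6Clo samples below it. The measured difference was -0.75 (SE 0.14, limma adjusted p = 0.0018), and set against the table median the gene was at least 1.31-fold higher in Ly6Chi. Leaving out Ly6Chi replicate 2, the brightest sample, gave -0.58 (limma adjusted p = 3.3e-04), and the gene was not tested where a value over the median was asked of all 8 arrays. Il1r2 is also known as a neutrophil transcript. The neutrophil marker list stood higher in Ly6Chi too. Of its 10 tested genes 5 were called, all toward Ly6Chi (50% called, against 32.5% of all tested genes). Its mean log2 was 7.63, 7.30, 7.36 and 7.30 in Ly6Chi against 6.87, 6.48, 6.42 and 6.47 in Ly6Clo. Within Ly6Chi the list mean was highest in replicate 1 and Il1r2 in replicate 2. The called markers did not share a peak. S100a8 was highest in Ly6Chi replicate 1, Mpo in 2, Mmp8 and Lcn2 in 3 and Csf3r in 4. The part of neutrophil RNA in the Il1r2 difference was not tested.

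The accessory chain Il1rap, which completes the signalling receptors for IL-1 and for IL-33, had 5 probe sets, and 2 passed the filter. The brighter gave 231, 233, 193 and 202 in Ly6Chi and 187, 211, 179 and 179 in Ly6Clo, with overlapping groups. It differed by -0.18 (95% interval -0.37 to 0.00, limma adjusted p = 0.13). The other tested probe set differed by -0.06 (95% interval -0.20 to 0.09, adjusted p = 0.57). The remaining 3 had means below the table median in both subsets and were not tested.

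The inflammasome genes fell on the Ly6Chi side except for Casp1. The sensor Nlrp3 stood at 702, 760, 694 and 726 in Ly6Chi and 555, 651, 571 and 491 in Ly6Clo. All Ly6Chi samples were above all Ly6Clo samples, and the difference was -0.35 (SE 0.08, 95% interval -0.54 to -0.17, limma adjusted p = 0.0069), or 1.28-fold. Nlrp3 and Il1b, both known to be induced in the priming step of this pathway, thus differed in opposite directions.

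The adaptor Pycard gave 2714, 2480, 2849 and 2336 in Ly6Chi and 1931, 1683, 1664 and 1619 in Ly6Clo on its brightest probe set. The groups did not overlap, and the difference was -0.59 (SE 0.08, 95% interval -0.77 to -0.41, limma adjusted p = 1.9e-04), or 1.5-fold. A second tested Pycard probe set, whose intensity lay between 79.9 and 112 on all arrays, differed by -0.08 (adjusted p = 0.64), and the third was not tested. The probe sets of Pycard therefore disagree on the call, and the dim ones lay close to the table median.

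Casp4 and Casp1 are adjacent genes in the gene table, and they did not behave alike. Casp4 gave 1172, 1191, 932 and 924 in Ly6Chi and 591, 718, 647 and 535 in Ly6Clo. Every Ly6Chi sample was above every Ly6Clo sample, with a difference of -0.76 (SE 0.11, 95% interval -1.0 to -0.51, limma adjusted p = 3.0e-04), or 1.69-fold. Casp1 gave 1662, 1658, 1699 and 1832 in Ly6Chi and 1638, 1768, 1973 and 1655 in Ly6Clo. These groups overlapped, and the difference was 0.04 (95% interval -0.13 to 0.20, limma adjusted p = 0.78). It was -0.02 without Ly6Clo replicate 3. Casp12, the third gene of this caspase cluster, was dim, with intensities of 79.4 to 88.8 in Ly6Chi and 62.7 to 74.5 in Ly6Clo, and was not tested.

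Samples also differed within subsets. Replicate 2 was the highest Ly6Chi sample for 5 of the 9 genes and the highest Ly6Clo sample for 7 of 9, where over all tested genes it was highest in 19.2% and 37.1%. The excess over the subset mean was 0.54 in Ly6Chi and 0.61 in Ly6Clo for Il1b, 0.52 and 0.10 for Il1r2, 0.19 and 0.21 for Casp4, and 0.08 and 0.21 for Nlrp3. Pycard and Casp1 did not share this, with deviations of replicate 2 between -0.06 and 0.01. With both samples numbered 2 left out, a setting chosen after seeing the data, the same 7 genes were called, and the Il1b difference was 1.6 (limma adjusted p = 2.9e-06).

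**Figure D4:**
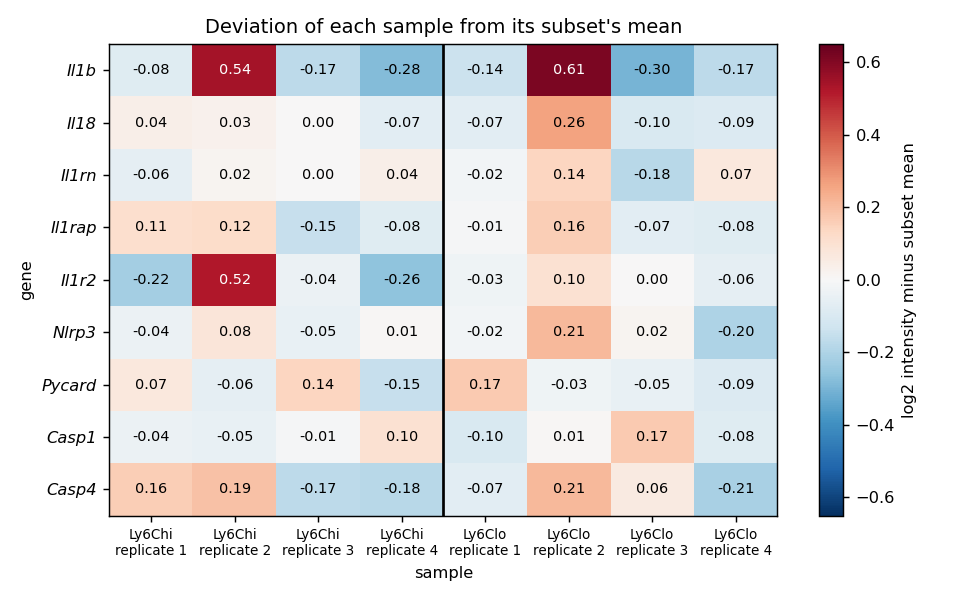
Deviation of each sample from the mean of its subset, in log2 intensity, for the 9 genes that passed the filter (rows) in 8 samples (columns), with the Ly6Chi samples left of the black line. Red is above and blue below the subset mean. Replicate 2 of both subsets is red for Il1b (0.54 and 0.61) and, more weakly, for Casp4, while Pycard and Casp1 show no such column.

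The 5 genes whose pattern over the 8 arrays was most like that of Il1b were Sipa1l1, C5ar1, Pbdc1, Tmx1 and Spred1, with Pearson correlations of 0.994, 0.992, 0.992, 0.989 and 0.987. Over 8 arrays such values describe mainly the difference between subsets and the high samples numbered 2, which all points share. After removal of the subset means the correlations were 0.91 to 0.97. C5ar1, the receptor for the complement fragment C5a, gave 145, 187, 140 and 130 in Ly6Chi and 257, 408, 245 and 292 in Ly6Clo. Both its 1.97-fold higher level in Ly6Clo and its peak in replicate 2 of each subset belong to the pattern it was chosen for. Immediate early genes, which handling and activation are known to induce, had a list mean of 8.98, 9.05, 8.80 and 8.82 in Ly6Chi and 8.94, 9.09, 8.82 and 8.85 in Ly6Clo. That mean was likewise highest in replicate 2 of each subset. It differed by 0.01 between the subsets, but its genes moved far in both directions. Of 14 genes 12 were tested, and 50% of these were called, against 32.5% of all tested genes. The 2 called toward Ly6Chi (18.5% of all tested genes) were Fos (4.75-fold) and Atf3 (1.77-fold). The 4 called toward Ly6Clo (14.1% of all tested genes) were Jun (3.03-fold), Nfkbia (1.49-fold), Btg2 (1.38-fold) and Ier2 (1.34-fold). Summed intensity of the list was 15100 to 18300 in Ly6Chi and 17700 to 20500 in Ly6Clo. The part of handling in the Il1b level was not tested.

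Other genes of the pathway, from lists that name 65 genes, were measured for 55 and tested for 44. Calls among these 44 were 9 toward Ly6Clo and 12 toward Ly6Chi (47.7% called, against 32.5% of all tested genes), with a median difference of -0.04. The lists too were chosen with earlier results of these data known, so the shares given for them are a description. None of the 4 tested ligands and binding proteins was called. Il18bp, the soluble protein that neutralises IL-18, differed by 0.06 (limma adjusted p = 0.67), and Il1f10 by 0.00 (limma adjusted p = 1). Nor was any of the 3 tested receptors called, and these were dim as well, with intensities of 88.2 to 162.7. Il18rap, a chain of the IL-18 receptor, differed by 0.01 (95% interval -0.15 to 0.16), and Sigirr, an inhibitory receptor of the family, by -0.07 (95% interval -0.21 to 0.07, limma adjusted p = 0.46).

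Receptor signalling had 2 of 15 tested genes called toward Ly6Clo and 3 toward Ly6Chi, a share of 33.3%, near the background. The kinase Irak2, which sustains signalling after MyD88 is engaged, was 1.28-fold higher in Ly6Clo (limma adjusted p = 0.0025), and Tab2, an adaptor of the kinase TAK1, 1.23-fold. Peli2 and Peli1, ubiquitin ligases that act on IRAK kinases, were at least 1.85-fold and 1.34-fold higher in Ly6Chi. For Peli2 the intensities were 154, 158, 136 and 158 in Ly6Chi against 56.1, 66.0, 63.0 and 61.7 in Ly6Clo (limma adjusted p = 1.8e-07). All Ly6Clo values lay below the table median, so Peli2 passed the filter only through the Ly6Chi arrays and had to differ. Without it 4 of 14 signalling genes were called, and 20 of 43 in all the lists. Map3k7, which encodes TAK1, was 1.18-fold higher in Ly6Chi (limma adjusted p = 0.026). Only this 1 of its 4 tested probe sets was called, so the probe sets of Map3k7 disagree on the call.

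Sensors other than Nlrp3 were divided, with 3 of 6 tested genes called toward Ly6Clo (14.1% of all tested genes) and 1 toward Ly6Chi (18.5% of all tested genes). Mefv, which encodes the inflammasome sensor pyrin, gave 932, 1019, 843 and 838 in Ly6Chi and 341, 380, 361 and 404 in Ly6Clo, a 2.44-fold difference (limma adjusted p = 3.8e-07) with no overlap. Nod1, a cytosolic receptor for bacterial cell wall fragments that signals apart from the inflammasome, was 1.74-fold higher in Ly6Clo (limma adjusted p = 3.6e-05). Naip5 and Naip6, which recognise flagellin, were 1.41-fold and 1.20-fold higher in Ly6Clo. The Naip genes are near-identical copies, so their probe sets may share signal. These folds, and the counting of Naip5 and Naip6 as separate calls, are therefore uncertain.

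Regulators and effectors had 8 of 16 tested genes called toward Ly6Chi and 4 toward Ly6Clo (75% called, against 32.5% of all tested genes). Serpinb1a, an inhibitor of neutrophil serine proteases, gave 265, 315, 319 and 207 in Ly6Chi and 112, 88.0, 85.4 and 80.1 in Ly6Clo, a 3.01-fold difference (limma adjusted p = 5.5e-06). Ninj1, the membrane protein that ruptures dying cells, was 2.45-fold and Pstpip1, a partner of pyrin, 1.87-fold higher in Ly6Chi. Of 4 tested Ninj1 probe sets, 3 were called toward Ly6Chi. Toward Ly6Clo, Ctsb, a lysosomal protease, was 1.49-fold higher, Serpinb9, an inhibitor of granzyme B, 1.37-fold, and the ectonucleotidase Entpd1 (CD39), which degrades extracellular ATP, 1.36-fold. Over the whole list, Ly6Chi and Ly6Clo values were fully apart in 12 of the 16 genes, against 33.9% of all tested genes.

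**Figure D5:**
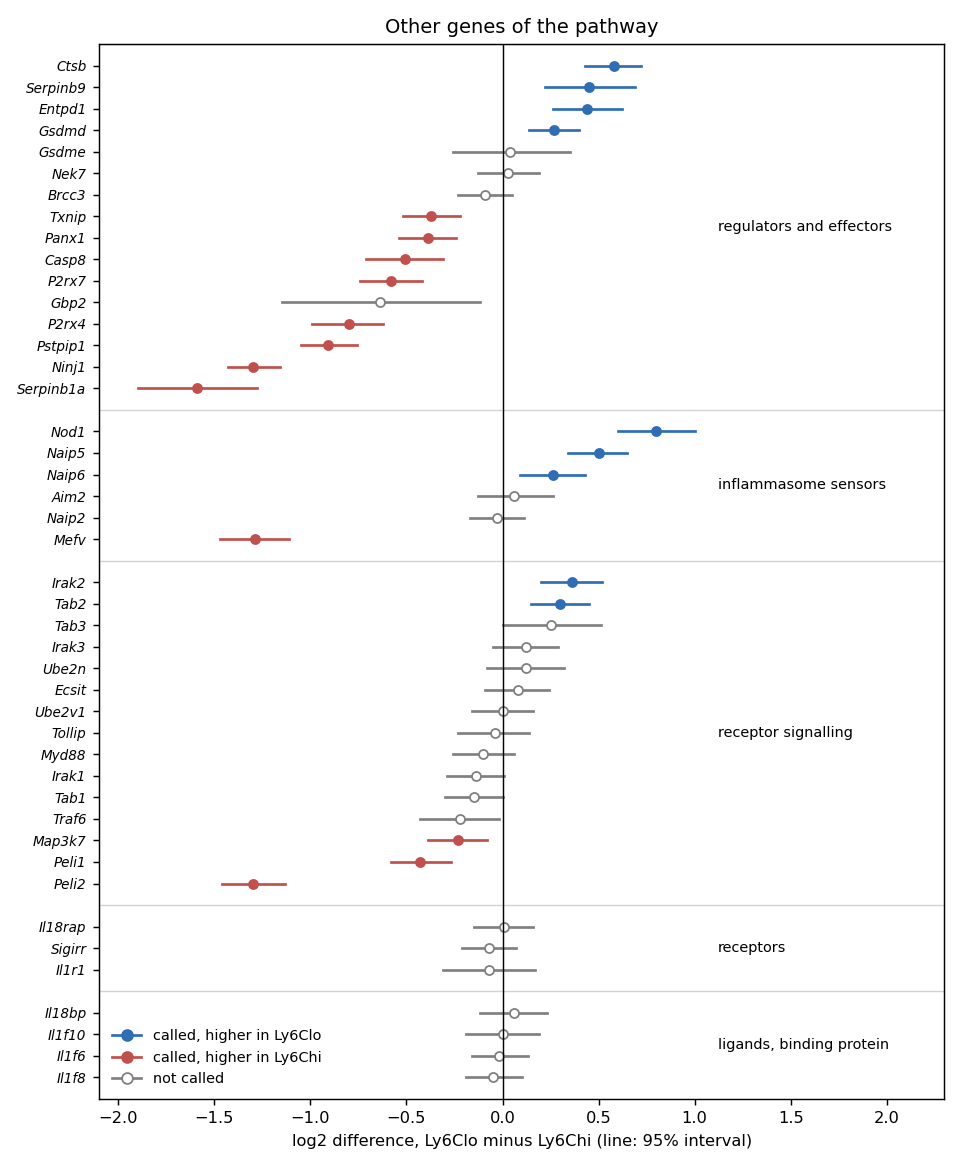
Log2 difference, Ly6Clo minus Ly6Chi, with 95% intervals for the 44 tested genes of the wider pathway, arranged by list. Blue marks genes called higher in Ly6Clo (9), red genes called higher in Ly6Chi (12) and open grey circles genes not called. The ligand and receptor lists at the bottom hold no called gene, and the calls toward Ly6Chi reach -1.59 for Serpinb1a.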

How the data were processed

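RNA of sorted mouse blood monocytes was hybridised to Affymetrix 3' mouse arrays. Per the labels' protocols, in vitro transcription was lengthened to 64 h. The authors deposited linear probe set intensity values. GCRMA and MAS5 both appear in the submitters' processing notes, without roles, and which of them gave the values is unknown. The values were taken to log2 without a pseudocount or further normalization. Probe sets were tested if above the table median (81.9) in at least 4 of 8 arrays, by moderated linear models (R 4.3.3, limma 3.58.1) without a block. The p-values were two-sided and adjusted by Benjamini-Hochberg over the 22831 probe sets, and the threshold was 0.05. The fit was tested on simulated data. A gene was represented by its tested probe set with the highest mean. A fold is a lower bound, against the table median, where the mean of the dimmer subset was under it.

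Gene names came from the platform annotation, and list symbols were matched through a RefSeq gene table (GRCm38.p6). Genes named were all members, the 3 called genes with the largest difference in each direction per wider list (otherwise the 2 with the highest mean), and the 5 most like Il1b. The members and lists were chosen with earlier results of these data known. Alternatives were other filters, a replicate block, quantile normalization, log2(value + 32), another variance model, array weights, a threshold of 0.01, each array left out and other probe set choices. Human arrays were not analysed here.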

Additional observations from a re-analysis of the deposited data

Results flagged for a closer look

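Among 36 sets of 4 samples (18 probe sets in each subset), 3 held a sample far from the other 3 by Dixon's criterion at its 95% critical value, where chance gives about 1 in 20. Il18 in Ly6Clo replicate 2 stood at a log2 intensity of 8.73, against 8.37 to 8.40 in the other Ly6Clo samples. Il1rap in Ly6Clo replicate 4 stood at 6.98 on its second probe set, against 7.15 to 7.17. Il1a in Ly6Clo replicate 1 stood at 4.89, against 5.02 to 5.03, a level below the table median.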

How the results depend on the processing

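Of the 7 called genes, Il1b, Il18, Nlrp3, Pycard and Casp4 kept their call and direction under all 18 alternatives and with both samples numbered 2 left out. Il1r2 was lost only by the filter that asks for all 8 arrays, under which it was not tested. Il1rn was lost at a threshold of 0.01 and on leaving out 5 of the single arrays, and the third Il1rn probe set also without a filter (limma adjusted p = 0.057). With each array left out in turn, the Il1b difference ranged from 1.42 to 1.80 and that of Il18 from -0.94 to -1.06. The number of genes called in the group was 6 or 7 throughout. At a threshold of 0.01, 2290 probe sets in all were called higher in Ly6Clo, against 3472. The replicate block changed no call among the 10 genes, and with it 7164 probe sets were called in all, against 7108. For Il1b the limma adjusted p was 1.2e-07 with the block, against 1.0e-04 without it. The labels do not say whether equal numbers mark pairs, and the main fit was planned without a block. Deviations of samples with the same number correlated at 0.27, 0.34, -0.03 and -0.10. Only Ly6Chi replicate 2 correlated best with the Ly6Clo sample of its own number (0.34, against at most -0.07 with the others). The change of Il1b against Il1rn was 1.86 in the 4 pairs of replicate numbers (replicate block, exact p = 0.125) and 1.88 without both samples numbered 2 (exact p = 0.10), designs in which no smaller p can be reached. Both p-values were fixed in advance by the separation of each gene. Genes near the table median are limited by signal over background.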
